A study of Mus musculus with 10 samples.

Results

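The 10 genes described here are markers of the endothelial cells that line brain capillaries and of the barrier these cells form. They are Cldn5, Cdh5, Esam, Pecam1, Flt1, Kdr, Tek, Abcb1a, Slco1a4 and Slco1c1, named as a list. Each was taken as the array row that the platform annotation assigns to that symbol alone, with the brightest row kept where a gene has several. All 10 were found, each with 1 such row (a probe set, whose probes are summarised into 1 value), among 19938 genes with a value and 28944 probe sets tested.

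RNA came from the whole brains of 5 mice carrying a bacterial artificial chromosome with Glo1 (Tg, labelled as Glo1 overexpression) and of 5 littermates without it (wild type, WT). The mice were adult males on a C57Bl/6J background, kept in groups and given no treatment, and each mouse was measured on 1 single-channel Affymetrix array. The number of transgenic founder lines is not given in the sources used here, and no label names a promoter or cell type that limits the transgene. The values are log2 expression values, so a difference of 1 is a doubling.

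Brain endothelial cells differ from those of most organs in that tight junctions seal the gaps between them and few vesicles cross them. Nutrients therefore enter through transporters in the cell membranes, and efflux pumps return many drugs to the blood. Vascular endothelial growth factor (VEGF) and angiopoietins keep these vessels alive and quiescent through receptor tyrosine kinases, while Wnt ligands from neural cells maintain the barrier genes. Endothelial cells are a small share of brain cells, so in whole-brain RNA fewer vessels and less RNA per vessel cannot be told apart.

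Glo1, which encodes the methylglyoxal-detoxifying enzyme glyoxalase 1, was 2.84-fold higher in Tg (difference 1.503 log2 units, SE 0.081, limma adjusted p = 1.53e-05). The array of WT replicate 2 stands apart. Its 12 cerebellar markers had a mean of 8.53 against 10.43 to 10.70 on the other 9 arrays, with all 12 at their lowest there, and its 8 pituitary markers a mean of 9.40. Pituitary markers were also high in Tg replicate 2, at 9.02, against 6.62 to 6.90 on the remaining 8 arrays. The median probe set in WT replicate 2 read 8.05, against 7.95 to 7.99 elsewhere. Differences and named pairs of the 10 genes are therefore given with and without WT replicate 2. Some counts, medians and relations of other lists are given over all 10 arrays only. The mean of 10 neuronal markers lay between 12.26 and 12.31 on every array.

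The RefSeq promoter table held 7 of the 10 genes (assembly GRCm38.p6). For 3 of them, Cldn5, Abcb1a and Slco1c1, the 250 bases before the start lie clear of any annotated part of the gene. All 3 of these windows are shown. Cldn5, Abcb1a and Slco1c1 are also the 3 genes whose value in WT replicate 2 lay apart from the other WT arrays, in different directions. A link between the sequences and those values was not tested. Capitals mark the core letters of the binding motif of ETS factors, GGAA on either strand, a family with well-known roles in endothelial genes. The windows are, on the plus strand, chr16:18776597-18776846 for Cldn5, chr5:8566841-8567090 for Abcb1a and chr6:141524104-141524353 for Slco1c1.
Cldn5: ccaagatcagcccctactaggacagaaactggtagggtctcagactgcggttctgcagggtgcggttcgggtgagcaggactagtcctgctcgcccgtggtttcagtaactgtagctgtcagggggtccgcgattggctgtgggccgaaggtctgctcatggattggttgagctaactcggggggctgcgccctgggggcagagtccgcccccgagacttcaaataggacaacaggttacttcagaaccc
Abcb1a: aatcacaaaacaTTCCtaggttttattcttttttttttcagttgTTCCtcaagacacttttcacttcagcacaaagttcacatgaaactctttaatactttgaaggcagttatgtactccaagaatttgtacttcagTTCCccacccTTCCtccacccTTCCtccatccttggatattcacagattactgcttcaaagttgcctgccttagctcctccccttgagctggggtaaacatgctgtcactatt
Slco1c1: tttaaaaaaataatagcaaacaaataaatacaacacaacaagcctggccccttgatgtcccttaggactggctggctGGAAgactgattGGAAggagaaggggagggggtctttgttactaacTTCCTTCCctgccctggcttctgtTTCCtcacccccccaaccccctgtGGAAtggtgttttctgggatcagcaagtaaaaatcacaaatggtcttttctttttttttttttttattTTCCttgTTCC

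The Cldn5 window held 0 matches to GGAA, the Abcb1a window 5 and the Slco1c1 window 8. Of the 32851 promoter windows of the same length, 93.4% held at least 1, with a median of 3, and 98.5% held fewer than Slco1c1. The GC box, GGGCGG on either strand, occurred 1 time before Cldn5 and in 32.7% of all windows, and 0 times before the other two. No match to the Sox core ACAAT (27.7% of windows) or to TATAAA (12.4%), on either strand, lay in the 3 windows. The GC content was 59.6% before Cldn5, 40.4% before Abcb1a and 42.8% before Slco1c1, against a median of 52.4%. These are matches of letters, not sites shown to be bound.

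The 10 genes lay in the middle to upper range of the array. Their means over the 10 arrays ranged from 7.83 log2 units for Kdr to 10.32 for Slco1a4, which places them at the 47.6th to the 85.8th percentile of all probe sets tested. Probe sets differ in how strongly they bind, so this range does not order the genes by amount of RNA. The median SD within groups was 0.076 log2 units over the 10 genes, against 0.102 over all probe sets. Against probe sets of like brightness, 4 of the 10 genes lay above the median SD. The SD of Pecam1 lay at the 2.50th percentile and that of Esam at the 2.80th, while that of Slco1a4 lay at the 95.9th.

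The main comparison asked whether these genes differ between Tg and WT brain. None did by the test across all probe sets: 0 of 10 passed an adjusted p of 0.05 (limma with Benjamini-Hochberg adjustment), where 0.0345% of all probe sets passed. At an unadjusted p under 0.05 limma gave 1 of the 10, Cldn5, against 2.21% of all probe sets. Tg means were higher for 7 of the 10, where 47.8% of all probe sets were higher, and the median difference was 0.032 log2 units against -0.0031 over all probe sets. The groups overlapped for all 10, where 0.149% of all probe sets had every Tg value above every WT value and 0.311% every one below. Without WT replicate 2 again 0 of 10 passed, where 0.038% of all probe sets did. Cldn5 remained the 1 gene with an unadjusted p under 0.05, against 11% of all probe sets, and 8 of 10 Tg means were higher, against 54.2%. Without WT replicate 4 the count at an unadjusted p under 0.05 (limma) was 3 of 10, Cldn5, Tek and Kdr, against 1.35% of all probe sets. In every other alternative the count was 1. WT replicate 4 was the WT array highest for both Tek and Kdr, so leaving it out raised both differences. The median difference was 0.025 without WT replicate 2, against 0.0083 over all probe sets. Without WT replicate 4 it was 0.028, against -0.0078 over all probe sets. It was 0.0027 without Tg replicate 5, the array where Flt1 and Slco1c1 were highest.

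**Figure D1:**
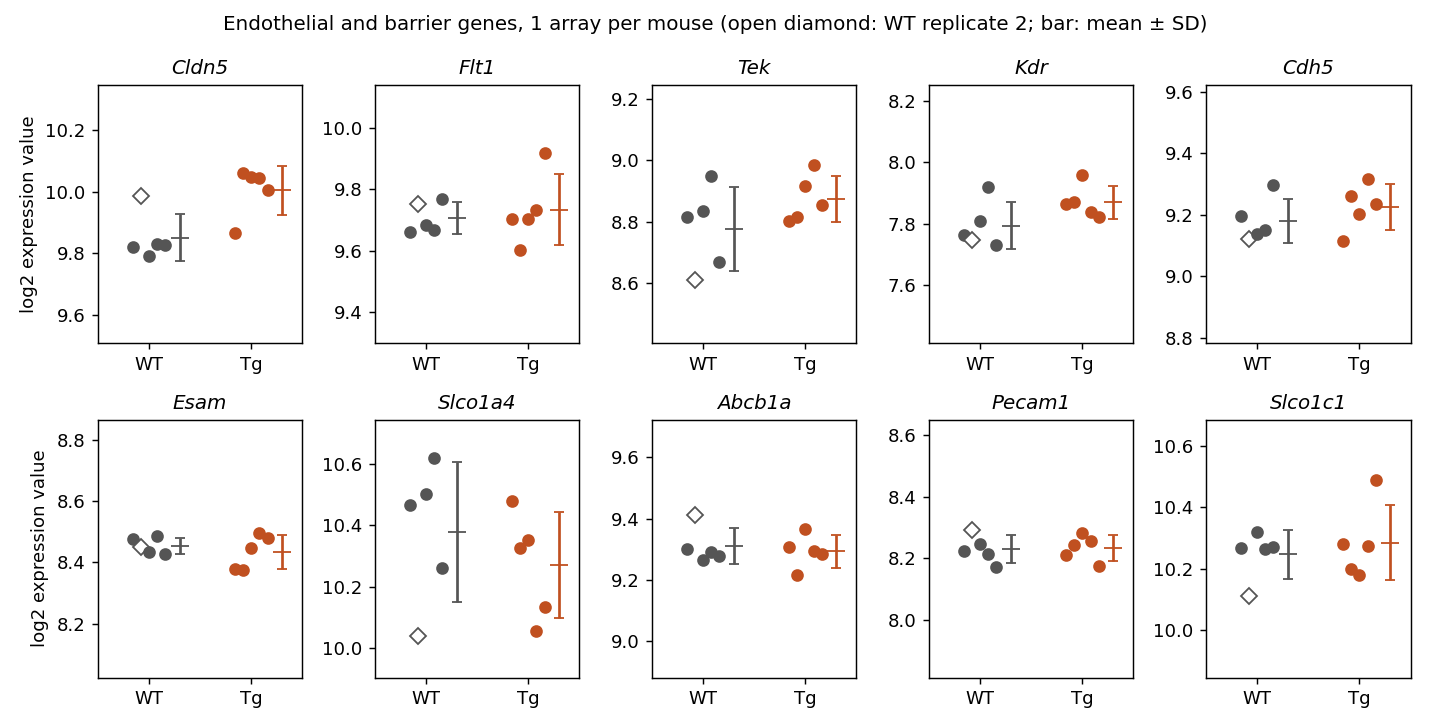
Log2 expression value of each gene on each of the 10 arrays, by genotype (vertical axes span the same width; points, 1 mouse each; open diamond, WT replicate 2; bars, mean ± SD of 5 mice). The groups overlap for all 10 genes, and 4 of the 5 Tg values of Cldn5 lie above every WT value.

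Of the junction and adhesion genes, Cldn5 showed the largest difference. Cldn5 encodes claudin-5, the main sealing protein of the tight junctions in brain endothelium. It read 9.87, 10.06, 10.05, 10.05 and 10.004 in Tg replicates 1 to 5 and 9.82, 9.99, 9.79, 9.83 and 9.83 in WT replicates 1 to 5. All Tg replicates except replicate 1 lay above the highest WT value, which was WT replicate 2, so the groups overlapped by that array. The means were 10.005 ± 0.080 in Tg and 9.85 ± 0.077 in WT (SD, n = 5 each). Tg was thus 1.11-fold higher, a difference of 0.15 log2 units (SE 0.053, 95% interval 0.039 to 0.27), which did not pass over all probe sets (limma adjusted p = 0.9998).

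On its own, the Cldn5 value gave a two-sided exact permutation p of 0.0159, where 5 against 5 arrays can give no less than 0.00794. This p is not adjusted and belongs to the largest of 10 genes, so it does not stand as a call. Without WT replicate 2 the 4 remaining WT values spanned only 9.79 to 9.83 and all 5 Tg values lay above them. None of the other 9 genes separated. Such a separation occurred with Tg higher in 1.86% of all probe sets and with Tg lower in 1.24%. The difference was then 0.19 (95% interval 0.088 to 0.29; limma adjusted p = 0.407), and 0.17 with Tg replicate 2 left out too (limma adjusted p = 0.486). Cerebellar markers moved with it: their mean was 10.43 to 10.53 in Tg and 10.59 to 10.70 in those 4 WT arrays, also without overlap, with all 12 of 12 markers lower in Tg. Over these 9 arrays Cldn5 and the cerebellar mean had r = -0.79 (permutation p = 0.0197, adjusted over 100 relations 0.493) and rho = -0.73 (permutation p = 0.0302, adjusted 0.627). Without WT replicates 3 and 4 as well r was -0.70. On deviations from the group means r was 0.023, so the relation rested on the difference between the genotypes. The part of the cerebellar share in the Cldn5 difference was not tested.

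The other adhesion genes lay closer together. Cdh5, vascular endothelial cadherin of the adherens junctions, read 9.23 ± 0.075 in Tg and 9.1802 ± 0.071 in WT, a difference of 0.05 (95% interval -0.064 to 0.16). Esam, an adhesion molecule of endothelial tight junctions, spanned only 8.38 to 8.49 in Tg and 8.43 to 8.49 in WT. Its difference was -0.019 (-0.11 to 0.068). Pecam1, an adhesion molecule of endothelium that platelets and leukocytes also carry, gave the smallest difference, 0.0037 (-0.084 to 0.091). Its sign changed without Tg replicate 3 or 4 or WT replicate 4 or 5. Leaving out WT replicate 2 gave differences of 0.031 (-0.080 to 0.14) for Cdh5, -0.020 (-0.11 to 0.068) for Esam and 0.020 (-0.063 to 0.10) for Pecam1. With other single arrays left out Cdh5 ranged from 0.023 without Tg replicate 4 to 0.075 without WT replicate 5, and Esam from -0.034 without Tg replicate 4 to -0.0046 without Tg replicate 2.

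Among the receptors, Tek and Kdr had the larger differences, and neither passed. Tek is the angiopoietin receptor Tie2, and it read 8.80, 8.82, 8.92, 8.98 and 8.86 in Tg replicates 1 to 5. In WT replicates 1 to 5 it read 8.82, 8.61, 8.84, 8.95 and 8.67. The 2 lowest values, WT replicates 2 and 5, both belong to WT, and the other arrays overlap. The difference was 0.10 (SE 0.066, 95% interval -0.047 to 0.24; exact permutation p = 0.214), and 0.057 (-0.075 to 0.19) without WT replicate 2. Kdr, the main signalling receptor for VEGF, read 7.87 ± 0.053 in Tg and 7.79 ± 0.076 in WT, a difference of 0.08 (-0.028 to 0.18; exact permutation p = 0.0952). WT replicate 4 reached 7.92, inside the Tg range of 7.82 to 7.96. Leaving out WT replicate 4, the WT array highest for both Tek and Kdr, gave 0.14 (0.0051 to 0.28) for Tek and 0.11 (0.0092 to 0.21) for Kdr, each with a limma adjusted p above 0.99. Flt1, a receptor that binds VEGF tightly and in its soluble form acts as a decoy, differed by 0.03 (-0.098 to 0.15). Its highest value was 9.92 in Tg replicate 5, and without that array the difference was -0.020. With WT replicate 2 left out the difference was 0.038 (-0.093 to 0.17) for Flt1 and 0.064 (-0.041 to 0.17) for Kdr.

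Of the 3 transporters, Slco1a4 varied most between mice, with an SD within groups of 0.202 log2 units against 0.103 for Slco1c1 and 0.056 for Abcb1a. Slco1a4 encodes an organic anion transporter of brain capillaries, and it read 10.48, 10.33, 10.35, 10.06 and 10.14 in Tg replicates 1 to 5. In WT replicates 1 to 5 it read 10.46, 10.04, 10.50, 10.62 and 10.26. The low arrays were WT replicate 2 and Tg replicates 4 and 5, from both genotypes. The difference was -0.11 (SE 0.11, 95% interval -0.35 to 0.14; exact permutation p = 0.421). Without WT replicate 2 it was -0.19 (-0.40 to 0.013; limma adjusted p = 0.468), 0.875 of the WT level, and without WT replicate 4 it was -0.047. Over the 9 arrays Slco1a4 and the cerebellar mean had r = 0.73 (permutation p = 0.0304, adjusted 0.506) and rho = 0.65 (permutation p = 0.0663, adjusted 0.737), and 0.51 without WT replicates 3 and 4 as well. The cerebellar mean did not overlap between the genotypes over these 9 arrays, so this r mixes the difference between genotypes with variation between mice. The part of the cerebellar share in the Slco1a4 values was not tested.

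Slco1c1 encodes the thyroxine transporter of brain endothelium, which choroid plexus also makes. It read 10.28, 10.20, 10.18, 10.27 and 10.49 in Tg and 10.27, 10.11, 10.32, 10.26 and 10.27 in WT, replicates 1 to 5 in order. Tg replicate 5 was the highest and WT replicate 2 the lowest, and the groups overlapped throughout. The difference was 0.04 (95% interval -0.10 to 0.18), 0.0036 (-0.13 to 0.13) without WT replicate 2 and -0.013 without Tg replicate 5. Abcb1a, the drug efflux pump P-glycoprotein of the capillary wall, differed by -0.017 (-0.11 to 0.080). Its highest value was 9.41 in WT replicate 2, against 9.27 to 9.30 on the other WT arrays, and without that array the difference was 0.0089. The sign also turned under quantile normalization and cyclic loess, to 0.0060 and 0.0042.

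**Figure D2:**
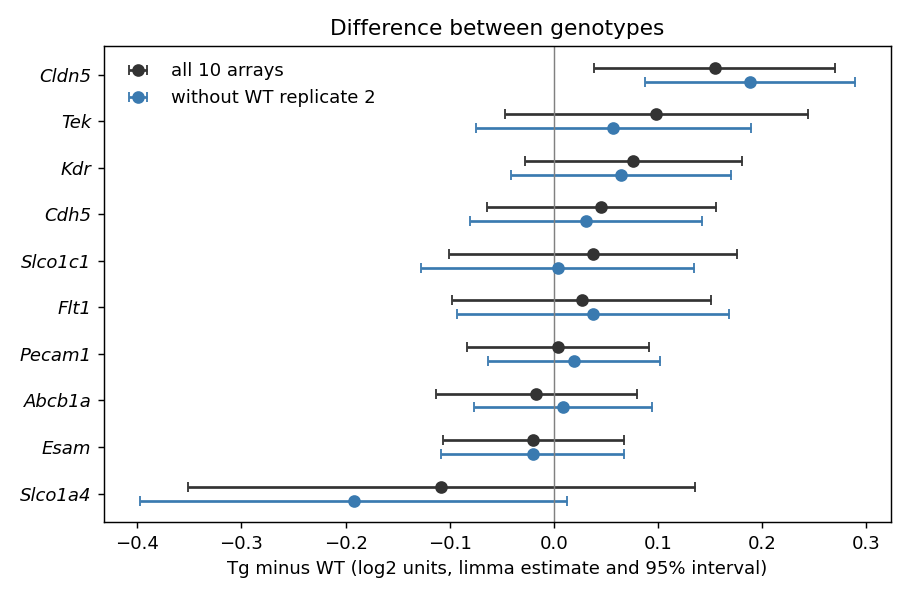
Tg minus WT difference of each gene in log2 units, with the 95% interval from limma, over all 10 arrays (dark) and without WT replicate 2 (blue); the vertical line marks 0. Only the intervals of Cldn5 leave out 0, from 0.039 to 0.27 and from 0.088 to 0.29, before adjustment over all probe sets.

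The second question was whether the 10 genes rise and fall together from brain to brain. By the median r of the values as deposited, they did so hardly more than genes at large. Over the 45 pairs the median Pearson r across the 10 arrays was 0.052, and 55.6% of the pairs were positive. Over all pairs of the 19938 genes the median r was 0.044 and 53.1% were positive. Over the 9 arrays the medians were 0.029 for the 10 genes and 0.006 for all genes. Centring each array on its median raised the value to 0.20 over 10 arrays, against 0.00 for all genes, but to 0.034 over the 9 arrays. On deviations from the group means the median of the 10 genes was 0.067 over 10 arrays and 0.14 over 9. That of all genes was not computed on deviations. None of the 45 pairs passed a Benjamini-Hochberg adjusted permutation p of 0.05, by r or by rho, with or without WT replicate 2. By r, 3 pairs had an unadjusted permutation p under 0.05 over 10 arrays and 3 over 9 arrays.

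Some other lists had a higher median pairwise r on these arrays. Whether the arrays could register covariation among genes that vary as little as the 10 was not tested. The 12 cerebellar markers had a median pairwise r of 0.98 over 10 arrays and 0.72 without WT replicate 2. The 8 pituitary markers had 0.91 and 0.86, and the 7 blood cell markers 0.73 and 0.27. For the 9 genes of fenestrated, venous and activated endothelium the values were 0.54 and 0.006. The 9 choroid plexus markers had 0.48 and 0.21, and the 9 microglial markers 0.38 and 0.24. Neuronal and oligodendrocyte markers were low too, the 10 neuronal at -0.09 and 0.001 and the 9 oligodendrocyte at 0.04 and 0.02. The 14 markers of pericytes and smooth muscle, the cells that wrap the endothelium, gave 0.10 and 0.03, and the 20 other endothelial identity genes 0.17 and 0.05. Pairs of 1 of the 10 genes with 1 of those 20 had a median r of 0.03 over 10 arrays and 0.06 over 9.

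**Figure D3:**
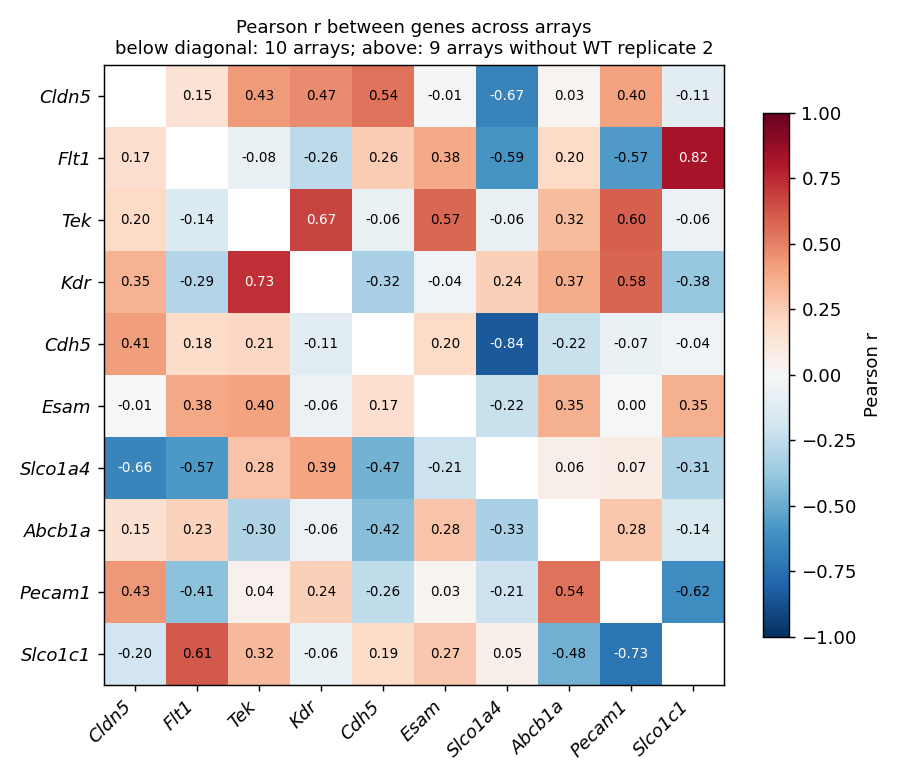
Pearson r of each pair of genes across arrays, below the diagonal over all 10 arrays and above it over the 9 arrays without WT replicate 2 (red, positive; blue, negative). Positive and negative pairs are mixed, and Slco1a4 is negative with Cldn5, Flt1 and Cdh5 on both sides of it.

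Over all 10 arrays the pair with the highest r was the receptors Tek and Kdr. They had r = 0.73 (permutation p = 0.0157, adjusted over the 45 pairs 0.353) and rho = 0.66 (permutation p = 0.0440, adjusted 0.830). Without Tg replicate 4 and WT replicate 2, the arrays farthest from the median of Tek, r was 0.81. Over the 9 arrays without WT replicate 2 alone they had r = 0.67 (permutation p = 0.0443, adjusted 0.490) and rho = 0.55 (permutation p = 0.132). Flt1 and Slco1c1 followed with r = 0.61 (permutation p = 0.0852, adjusted over the 45 pairs 0.767) and rho = 0.33 (permutation p = 0.349, adjusted 0.830). That relation rested on Tg replicates 2 and 5, since r was -0.39 without them. This pair was the highest over the 9 arrays, with r = 0.82 (permutation p = 0.0243, adjusted 0.490). Abcb1a and Pecam1 had r = 0.54 (permutation p = 0.103, adjusted over the 45 pairs 0.772) and rho = 0.44 (permutation p = 0.205, adjusted 0.830). With WT replicate 2 left out they had r = 0.28 (permutation p = 0.482, adjusted 0.887). Leaving out Tg replicate 2 as well gave 0.57, and cyclic loess over 10 arrays gave 0.050.

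Over all 10 arrays the lowest r belonged to Pecam1 and Slco1c1, with r = -0.73 (permutation p = 0.0127, adjusted over the 45 pairs 0.353) and rho = -0.56 (permutation p = 0.0963, adjusted 0.830). Without WT replicates 2 and 5 r was -0.78, and over the 9 arrays they had r = -0.62 (permutation p = 0.0653, adjusted 0.490). The other two of the lowest pairs both held Slco1a4. With Cldn5 it had r = -0.66 (permutation p = 0.0418, adjusted over the 45 pairs 0.628) and rho = -0.49 (permutation p = 0.153, adjusted 0.830), and r was -0.70 without Tg replicate 2 and WT replicate 3. That pair had r = -0.67 (permutation p = 0.0525, adjusted 0.490) over the 9 arrays. With Flt1 it had r = -0.57 (permutation p = 0.0755, adjusted over the 45 pairs 0.767) and rho = -0.62 (permutation p = 0.0604, adjusted 0.830), and r was -0.80 without Tg replicates 2 and 5. The 9 arrays gave r = -0.59 (permutation p = 0.0899, adjusted 0.490). Over the 9 arrays the largest value in either direction, picked after it was seen, was that of Cdh5 with Slco1a4, at r = -0.84 (permutation p = 0.00561, adjusted 0.252) and rho = -0.88 (permutation p = 0.00319, adjusted 0.144). Over all 10 arrays that pair had r = -0.47, and -0.22 without Tg replicate 4 and WT replicate 5, the arrays farthest from the median of Cdh5. Slco1a4 had a median r of -0.21 with the other 9 genes, and -0.22 with all 19928 other genes, over 10 arrays. Over the 9 arrays these medians were -0.22 and -0.096. Slco1a4 and Slco1c1, which lie on chromosome 6 with 2 genes between them, had r = 0.052 over 10 arrays and -0.31 over 9. The direction of the 10-array value turned with the scaling, from -0.19 after quantile normalization and -0.11 after cyclic loess to 0.27 after median centring.

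Each gene was next set against the mean of 10 marker lists for other cell types and adjoining tissues, 100 relations in all. By r, 0 of the 100 passed after adjustment, with 11 unadjusted permutation p values under 0.05. By rho, Slco1c1 with choroid plexus passed. Over 10 arrays Slco1c1 and the mean of 9 choroid plexus markers had rho = 0.98 (permutation p = 3.0e-05, adjusted 0.00300) and r = 0.85 (permutation p = 0.00211, adjusted 0.181). Without WT replicate 2 rho was 0.97 (permutation p = 0.00019, adjusted 0.0190) and r was 0.81 (permutation p = 0.0246, adjusted 0.493). Leaving out Tg replicate 3 and WT replicate 2, the arrays farthest from the median of the markers, gave r = 0.90, and deviations from the group means over the 9 arrays gave 0.84. Under other scalings r ranged from 0.72 with quantile normalization to 0.89 with median centring.

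**Figure D4:**
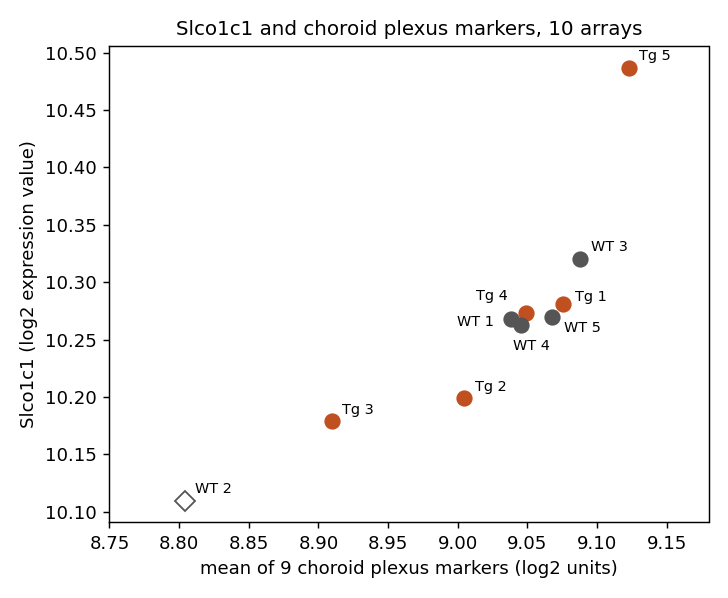
Slco1c1 (vertical axis) against the mean of 9 choroid plexus markers (horizontal axis), both in log2 units, 1 point per array (grey, WT; orange, Tg; open diamond, WT replicate 2). WT replicate 2 and Tg replicate 3 are lowest on both axes and Tg replicate 5 is highest on both.

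All 9 choroid plexus markers had a positive r with Slco1c1 over 10 arrays, where 41.3% of all genes did, and 8 of 9 over the 9 arrays, where 55.9% did. Their median r was 0.59 over 10 arrays, against -0.10 for all genes, and 0.35 over 9, against 0.06. Kcnj13, a potassium channel of the choroid plexus epithelium, had the highest of the 9 values over 10 arrays (r = 0.87, and 0.81 over 9). Ttr, which encodes the thyroxine carrier transthyretin, had 0.53 and 0.28. Folr1, a folate receptor, had the lowest over 10 arrays (0.35, and 0.50 over 9), and Sostdc1 the lowest over 9 (0.45, then -0.034). The marker mean ranged from 8.91 to 9.12 in Tg and from 8.80 to 9.09 in WT. The share of the Slco1c1 signal that came from choroid plexus was not tested. Pecam1 went the other way, with r = -0.79 (permutation p = 0.00441, adjusted 0.181) and rho = -0.66 (permutation p = 0.0443, adjusted 0.561). Without Tg replicate 3 and WT replicate 2 its r was -0.52. Against the 10 meningeal markers Pecam1 had r = 0.69 (permutation p = 0.0230, adjusted 0.329) and rho = 0.61 (permutation p = 0.0674, adjusted 0.561), and r was 0.71 without Tg replicate 3 and WT replicate 3. Neither relation of Pecam1 passed.

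The genes whose pattern was most like the mean of the 10 were sought among 12899 others in the upper 60% of brightness. Over 10 arrays they were Dnajc14 (r = 0.89), Zfp324 (0.88), Trmt12 (0.88), Evl (0.87), Coa5 (0.87) and Zfp280b (0.85). Over the 9 arrays they were Atad3a (0.87), Zfp324 (0.87), Fam166c (0.87), Tspo (0.86), Cstf2t (0.85) and Cmtm8 (0.85). Zfp324 appears in both sets, which share 9 arrays, and none of these genes belongs to the endothelial lists used here. These are the highest of 12899 values over 10 or 9 arrays. How high such a maximum runs for unrelated genes was not tested, so the r values do not show a shared pattern. The mean of the 10 itself moved little, from -0.055 log2 units in WT replicate 2 to 0.038 in Tg replicate 3, and it followed Tek most closely (r = 0.92). Tek is 1 of the 10 in that mean, so part of this r is built in. The genes were not scaled, so those that vary more weigh more in the mean.

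Further genes of the same biology were read from lists, and 0 passed over all probe sets in either direction. Of 20 other endothelial identity genes, 11 were higher in Tg, with a median of 0.010. With WT replicate 2 left out there were 15, with a median of 0.043, and 5 of the 20 had an unadjusted p under 0.05 (limma), where 11% of all probe sets did. Sox18, an endothelial transcription factor, had the lowest p, at 8.33 ± 0.085 in Tg and 8.21 ± 0.079 in WT (SD, n = 5 each), a difference of 0.12 (95% interval 0.0012 to 0.24; limma adjusted p = 0.9998). Of 14 other junction genes 8 were higher, with a median of 0.0091. Lsr, the lipolysis-stimulated receptor of tricellular junctions, differed by 0.12 (0.0013 to 0.25), and Ocln, occludin, by -0.019 (-0.16 to 0.12). Without WT replicate 2 the difference was 0.16 (0.049 to 0.27; limma adjusted p = 0.407) for Lsr, 0.15 (0.037 to 0.26; limma adjusted p = 0.407) for Sox18 and -0.073 (-0.17 to 0.028) for Ocln. Of 16 other barrier transporters and receptors 4 were higher and 12 lower, with a median of -0.027; 7 were higher after quantile normalization. In WT replicate 2, 8 of the 16 had their highest value, against 36.5% of all probe sets. Without that array 10 of the 16 were higher in Tg and the median was 0.014.

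Among those transporters Abcg2, a second efflux pump, had the lowest p. It read 8.12 ± 0.073 in Tg and 8.26 ± 0.17 in WT, a difference of -0.14 (95% interval -0.31 to 0.025), and -0.19 (-0.34 to -0.048; limma adjusted p = 0.407) without WT replicate 2. Over those 9 arrays every Tg value of Abcg2 lay below every WT value, as in 1.24% of all probe sets. Slc2a1, the glucose transporter of the barrier, differed by -0.011 (-0.18 to 0.16). Abcb1b, the paralog of Abcb1a, differed by -0.044 (-0.20 to 0.12). Both signs turned over the 9 arrays, to 0.0091 (-0.17 to 0.19) for Slc2a1 and 0.020 (-0.096 to 0.14) for Abcb1b. Of 15 ligands and partners of VEGF and angiopoietin signalling 4 were higher, with a median of -0.0058, and Vegfa itself differed by 0.07 (-0.072 to 0.20). Of 15 genes of Wnt barrier signalling 8 were higher, with a median of 0.0011, and the receptor Fzd6 differed by 0.09 (-0.024 to 0.20). Of 8 arterial genes 5 were higher, with a median of 0.027, and the connexin gene Gja5 differed by 0.10 (-0.0047 to 0.21). With WT replicate 2 left out Fzd6 differed by 0.13 (0.032 to 0.22; limma adjusted p = 0.407), Vegfa by 0.10 (-0.038 to 0.23) and Gja5 by 0.10 (-0.0082 to 0.21).

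The list for fenestrated, venous and activated endothelium moved with 1 array. Of its 9 measured genes 8 were highest in WT replicate 2, where 36.5% of all probe sets were highest, and the list mean there was 8.45 against 8.05 to 8.21 elsewhere. The 10 barrier genes did not follow: 2 of them were highest and 3 lowest in WT replicate 2. Lcn2, a secreted protein induced in inflammation, had the lowest p of the list and read 7.90 in WT replicate 2, 7.48 in WT replicate 4 and 6.25 to 6.86 on the other arrays. Its difference was -0.40 (95% interval -0.996 to 0.19), and -0.17 (-0.63 to 0.29) without WT replicate 2. Blood cell markers followed the same arrays, with a mean of 7.82 in WT replicate 2, 7.40 in WT replicate 4 and 7.04 to 7.19 elsewhere. No haemoglobin gene had a probe set of its own, and only 2 of the 7 blood cell markers measured lay in the upper 60% of brightness. The part of blood cells in the list's values was not tested. Pericyte and smooth muscle markers, 8 of 14 higher, had a median difference of 0.014, and astrocyte markers, 5 of 10 higher, 0.0080.

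The remaining marker lists also held 0 genes past the threshold. The median difference was -0.00046 for 9 microglial markers, and 0.020 after quantile normalization. It was -0.015 for 9 oligodendrocyte, 0.0045 for 10 neuronal, 0.0022 for 9 choroid plexus and 0.021 for 10 meningeal markers. For 7 blood cell markers it was -0.21, and -0.044 without WT replicate 2. The 12 cerebellar markers had a median of 0.17 over all arrays and -0.19 without WT replicate 2, and the 8 pituitary markers 0.07 and 0.32.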

How the data were processed

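Whole-brain RNA of 5 Tg and 5 WT mice was isolated with TRIzol and an RNeasy kit, biotin-labelled and hybridised to single arrays (1 per animal), as the labels' protocols record. The deposited values are log2 expression values, and the submitters' processing notes name Affymetrix Expression Console 1.1.2; its settings are not known here. The log2 scale follows from their range, 3.28 to 14.7, and they were used as deposited. Of 35556 rows, 6612 control rows (18.6%) were left out and 28944 were tested. The platform annotation gave 1 gene for 21789 of them, several for 1621 and none here for 5534; 21698 were matched to RefSeq genes by Entrez identifier. Promoters came from RefSeq.

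Tg and WT were compared with limma 3.58.1 (lmFit, eBayes, no covariate) in R 4.3.3, adjusted by Benjamini-Hochberg over all 28944 probe sets at 0.05, with exact permutation tests for single genes. Correlations used 100000 permutations. Alternatives were other scalings, filters, a variance trend, weighted arrays, a block for the replicate number, a covariate for the serial number, and arrays left out.

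The 10 genes and all lists were chosen with earlier results of these data known. Named genes are the 10, the gene of lowest p in each pathway list, Slc2a1, Abcb1b, Ocln and Vegfa, the 6 most similar genes over 10 and over 9 arrays, the 3 highest and 3 lowest pairs, and Glo1. The sequences shown, Kcnj13, Ttr, Folr1, Sostdc1 and the pair of Cdh5 with Slco1a4 were picked after their values were seen. The number of arrays limits the precision.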

Additional observations from a re-analysis of the deposited data

Results flagged for a closer look

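In all, 3 values lay apart from the other 4 arrays of their group by Dixon's test at the 95% level, all 3 of them in WT replicate 2. Cldn5 read 9.99 there against 9.79 to 9.83 in the other WT mice, a gap that took up 0.789 of the WT range. Abcb1a read 9.41 against 9.27 to 9.30, with a gap of 0.751 of the range. Slco1c1 read 10.11 against 10.26 to 10.32, with a gap of 0.726 of the range. The critical value for 5 arrays is 0.71, and chance flags about 1 in 20 groups, so about 1 of the 20 groups checked. The array is the one with low cerebellar and high pituitary markers, and their part in these values was not tested.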

How the results depend on the processing

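The count of 0 of 10 genes past the threshold held under all 21 alternatives (limma), where the lowest adjusted p of any of the 10 was 0.407. At an unadjusted p under 0.05 (limma) the count was 3 without WT replicate 4. It was 1 over 10 arrays and in every other alternative. Over all probe sets the count was 10, and 9 to 11 with single arrays left out. Of 206 recomputed differences of single genes, 194 kept their direction and 12 did not, and the cause was not tested. Abcb1a turned to 0.0060 with quantile normalization, 0.0042 with cyclic loess, 0.0079 with array weights and 0.028 with Tg replicate 2 and WT replicate 2 both left out, an alternative chosen after seeing the data. With single arrays left out Abcb1a ranged from -0.035 to 0.0089, Flt1 from -0.020 to 0.059, Pecam1 from -0.011 to 0.020, Slco1c1 from -0.013 to 0.064, Cdh5 from 0.023 to 0.075, Esam from -0.034 to -0.0046, Tek from 0.057 to 0.14 and Kdr from 0.054 to 0.11. Cldn5 stayed between 0.14 and 0.19 and Slco1a4 between -0.21 and -0.047 in every alternative. With single arrays left out the median difference ranged from 0.0027 without Tg replicate 5 to 0.048 without Tg replicate 2. The median pairwise r of 0.052 became 0.20 with median centring and ranged from -0.058 to 0.11 with single arrays left out, and the cause was not tested. Whether replicate numbers pair the mice cannot be told from 5 pairs of arrays. Same-numbered Tg and WT arrays had deviations correlated from -0.47 to 0.45, over 0.1 in 2 of 5 pairs. With the replicate number as a block the count over all probe sets was 11, the Cldn5 difference of 0.15 had an adjusted p of 0.999, and the median pairwise r was 0.058. The filter to the upper 30% of probe sets left out Tek, Kdr, Esam and Pecam1. Signal over background was not given per array, and small differences in dim genes may be missed.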
